A study of Mus musculus with 2 samples.

Results

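Collagen genes were examined for open chromatin in newborn mouse heart. They were taken as every protein-coding gene of GENCODE vM21 on chromosomes 1 to 19 and X whose symbol is Col, a number, the letter a and a number, which gave 44 of the 21755 protein-coding genes on those chromosomes. By protein class they comprised 11 fibrillar chains, 6 basement membrane chains, all of type IV, and 27 other chains, and the rule uses the symbol and no measured value. The material was heart tissue of strain B6NCrl at postnatal day 0, in 1 group of 2 DNase-seq libraries, called replicate 1 and replicate 2. Both libraries carry the same donor label and separate biosample labels, the sex was not collected, and the labels name no transgene, treatment or second age. DNase I cuts DNA that is not packed in nucleosomes, so a cluster of cuts marks an accessible site. For each library the authors deposited peaks, each 150 bp long with 1 signal value, and hotspots, which are regions of variable width with a q-value.

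Collagens are triple-helical proteins of the extracellular matrix, and each gene encodes 1 chain that pairs with others of its type. In the heart, fibroblasts make the fibrillar collagens that form the interstitial network, while endothelial, smooth muscle and muscle cells rest on basement membranes built from type IV collagen. The remaining types attach to fibrils, form beaded filaments or short networks, anchor epithelia, or sit in the cell membrane.

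On the chromosomes used, replicate 1 had 164601 peaks and replicate 2 had 144654. The highest peak value was 148, no unit or scaling is stated for it, and the number of reads behind each library is unknown. Each SD below covers the spread between these libraries, which may be technical. A promoter peak has its centre within 500 bp of any annotated transcription start of the gene, and it is called recurrent where each library lists one. A distal peak has its centre more than 1 kb from every annotated start of any gene. With 1 group there is no contrast to test, so values stand beside those of all protein-coding genes. The heart label was set against marker genes. Recurrent promoter peaks stood at 10 of 10 cardiomyocyte, 9 of 10 endothelial, 8 of 10 fibroblast and 8 of 10 smooth muscle and pericyte markers, against 64.2% of all protein-coding genes. Outside the heart, the counts were 5 of 10 for cartilage, 2 of 10 for bone, 3 of 10 for keratinocytes and 6 of 7 for kidney podocytes. Cartilage markers with a recurrent promoter peak included Matn3, Sox9 and Chad, and those of podocytes included Kirrel, Synpo and Podxl. In bulk tissue, a value that is low because few cells carry the open site cannot be told apart from one that is low in every cell. No cell type was therefore assigned to any site below.

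Recurrent promoter peaks were found at 34 of 44 collagen genes, or 77.3%, against 64.2% of all protein-coding genes. By class these were 10 of 11 fibrillar, 6 of 6 type IV and 18 of 27 other collagen genes. Col4a1 and Col4a2 share their highest promoter peak, as do Col4a3 and Col4a4. Each shared peak enters these counts, and the medians below, for both of its genes. Hotspots within 500 bp of a start gave the same 34 of 44 genes, against 65% of all protein-coding genes. Collagen genes had a median of 4 annotated start positions per gene, against 3 over all protein-coding genes, and some of their peaks lay at internal starts. At the start of the principal transcript alone, 27 of 44 collagen genes, or 61.4%, had a recurrent peak, against 59.6% of all protein-coding genes. The 7 genes that counted only through other starts were Col2a1, Col6a4, Col9a2, Col15a1, Col17a1, Col18a1 and Col26a1. At the 5′ end of the annotated gene alone the count was 24 of 44, against 58.1%. With the 50% of peaks of higher value it was 23 of 44, also against 58.1%. The collagen share was thus above the background when every start and every peak counted, and near or below it otherwise in these counts.

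**Figure D1:**
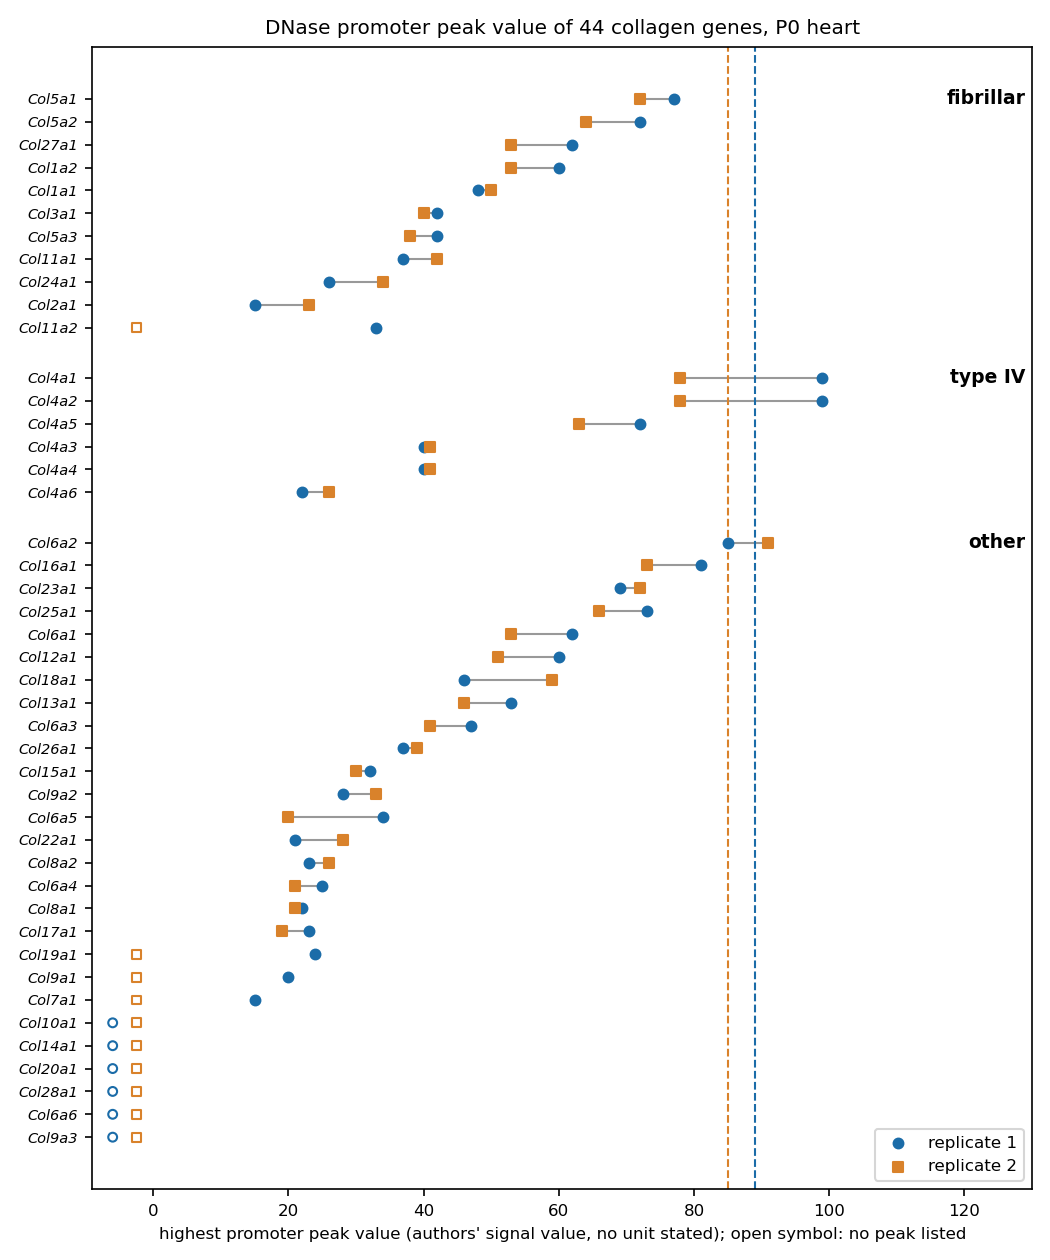
Highest promoter peak value (authors' signal value, horizontal axis) of each of the 44 collagen genes in replicate 1 (blue circles) and replicate 2 (orange squares), grouped as fibrillar, type IV and other, with open symbols where no peak was listed. Dashed lines mark the medians over all protein-coding genes with a recurrent promoter peak, 89 in replicate 1 and 85 in replicate 2, and most collagen genes lie to their left.

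Where a recurrent promoter peak was present, its value was low for a promoter. The median over the 34 collagen genes was 44 in replicate 1 and 41.5 in replicate 2, against 89 and 85 over 13977 protein-coding genes. The median of all promoter peaks was lower, 54 in replicate 1 and 52 in replicate 2, since it counts every promoter peak and not only the highest of a gene. Against it, 20 of the 34 genes lay below in both libraries and 12 lay above in both. The same count over all protein-coding genes is not given here. The value was lower in replicate 2 at 20 genes and higher at 14, and the median SD between the libraries was 4.24. The value of a gene is that of its highest promoter peak in each library. At 31 of the 34 genes these peaks overlapped between libraries, and at Col1a1, Col2a1 and Col4a6 they stood at different sites.

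Promoters rich in CpG dinucleotides tend to be accessible in most tissues, so all protein-coding genes were split into 3 groups of equal size by the ratio of observed to expected CpGs around the principal start, 500 bp to each side. The low group held 13 collagen genes, the middle group 23 and the high group 8. In the low group, 9 of 13 collagen genes carried a recurrent promoter peak, against 20% of all protein-coding genes of that group. They were Col1a1, Col3a1, Col4a6, Col6a1, Col6a3, Col6a4, Col17a1, Col22a1 and Col24a1. At the principal start alone, the low group gave 7 of 13 collagen genes, against 11.7% of protein-coding genes. In the middle group, the counts were 18 of 23 collagen genes against 77.6% of all, and 14 of 23 against 72.8% at the principal start. In the high group, 7 of 8 collagen genes stood against 95.1% of all, and 6 of 8 against 94.1% at the principal start. In these counts, collagen genes with few CpGs carried a promoter peak more often than the background, while those with many did not. The groups did not match collagen genes to the background. The median CpG ratio of collagen genes was 0.257 in the low group, against 0.159 over all protein-coding genes. It was 0.451 against 0.576 in the middle group and 0.766 against 0.836 in the high group. Low-group collagen genes were also longer, with medians of 78.0 against 8.76 kb, and had 4 annotated starts against 2. The part of these differences in the counts and values was not tested. Values at the principal start were lower than the background in all 3 groups. In the low group the collagen median was 42 in replicate 1 and 40 in replicate 2, against 52 and 48 over all protein-coding genes. In the middle group it was 51 and 46.5, against 81 and 76. In the high group it was 73 and 72, against 96 and 93.

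**Figure D2:**
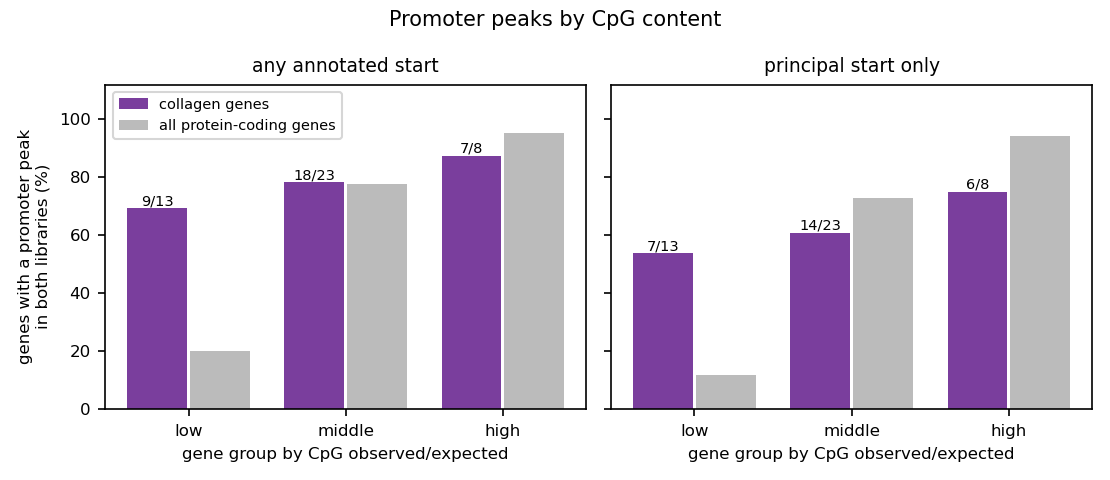
Share of genes with a recurrent promoter peak (percent, vertical axis) by group of CpG content, for collagen genes (purple, with counts) and all protein-coding genes (grey), at any annotated start (left panel) and at the principal start only (right panel). In the low group the collagen bars reach 9 of 13 and 7 of 13 genes, against 20% and 11.7% of all protein-coding genes, and in the high group they lie below the grey bars.

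Type I collagen, the main fibrillar collagen of the heart interstitium, is built from the chains of Col1a1 and Col1a2. At its principal start Col1a1 had peak values of 48 in replicate 1 and 42 in replicate 2, a mean of 45.0 ± 4.24 (SD, n = 2). An internal start had 46 and 50, so the highest promoter peak differed between libraries. A taller site lay at +0.947 kb from the start, with values of 85 in replicate 1 and 72 in replicate 2. It fell between the promoter and the distal definitions and is named here because its value was seen to exceed that of the promoter. Col1a2, whose start region is shared with Gm43921, had promoter values of 60 and 53, a mean of 56.5 ± 4.95. This peak stood at its principal start, while the 5′ end of the annotated gene, 679 bp upstream, had none.

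Col3a1 encodes type III collagen, which mixes with type I in the heart and in vessel walls. Its promoter peak, in a start region shared with Gm47302, had a value of 42 in replicate 1 and 40 in replicate 2, a mean of 41.0 ± 1.41. A pair of distal sites followed inside the gene. The first, at +1.5 kb, had 34 and 42, and the second, at +2.6 kb, had 50 and 48. Col2a1 encodes the type II collagen of cartilage, and its promoter peaks lay at internal starts, with none listed in either library within 500 bp of the principal start. The promoter peaks that overlapped between libraries, at +4.24 kb, had 15 in replicate 1 and 11 in replicate 2. A promoter peak of 23 in replicate 2 stood at a different internal start. It overlapped a taller replicate 1 peak of 40 at +3.324 kb, whose centre lay outside the 500 bp window. Col2a1 nevertheless held one of the tallest distal sites of all collagen gene bodies, at chr15:97993016-97993165 in intron 16, with values of 85 and 87. The interval was the same in both libraries, 11.6 kb past the start.

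Type V collagen starts and limits the growth of type I fibrils. Col5a1 had the highest promoter value of the fibrillar class, 77 in replicate 1 and 72 in replicate 2, a mean of 74.5 ± 3.54. Col5a2 followed with 72 and 64, a mean of 68.0 ± 5.66. Col5a1 was higher in each library, but the values of these genes met at 72 across libraries. Col5a3, which encodes a further type V chain, had 42 and 38. Type XI collagen serves the same role in cartilage fibrils. Of its genes, Col11a1 had 37 and 42, and Col11a2 had 33 in replicate 1 with no peak in replicate 2. Col11a2 was the only fibrillar gene without a recurrent promoter peak. Col24a1 and Col27a1 encode later described minor fibrillar chains. Col24a1 had 26 and 34, and Col27a1 had 62 and 53 at its principal start.

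These promoters differ in base composition, which the following sequences show for 3 fibrillar genes whose peak has its centre within the 250 bases before the start and for Col3a1, whose peak begins close to the start. They are the plus strand of RefSeq promoters on GRCm38.p6, the primary sequence of mm10, and capitals mark a CCAAT box (CCAAT), a GC box (GGGCGG) or a TATA box (TATAAA) on either strand. No marked matches overlap.
Col5a1, chr2:27886175-27886424: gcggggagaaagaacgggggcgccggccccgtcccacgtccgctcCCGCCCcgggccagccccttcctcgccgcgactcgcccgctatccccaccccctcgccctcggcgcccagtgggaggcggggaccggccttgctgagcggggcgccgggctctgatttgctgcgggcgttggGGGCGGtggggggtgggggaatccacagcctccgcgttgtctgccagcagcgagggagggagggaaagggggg
Col27a1, chr4:63215162-63215411: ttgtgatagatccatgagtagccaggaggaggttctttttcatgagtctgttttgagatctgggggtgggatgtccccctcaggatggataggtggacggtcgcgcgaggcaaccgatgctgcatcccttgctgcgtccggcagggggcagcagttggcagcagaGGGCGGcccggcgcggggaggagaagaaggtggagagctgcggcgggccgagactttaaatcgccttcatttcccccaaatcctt
Col11a1, chr3:114030290-114030539: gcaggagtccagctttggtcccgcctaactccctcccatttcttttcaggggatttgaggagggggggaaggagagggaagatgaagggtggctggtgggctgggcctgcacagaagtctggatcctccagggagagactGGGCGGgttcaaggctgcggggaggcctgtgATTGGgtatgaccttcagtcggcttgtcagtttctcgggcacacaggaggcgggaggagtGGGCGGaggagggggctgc
Col3a1, chr1:45311288-45311537: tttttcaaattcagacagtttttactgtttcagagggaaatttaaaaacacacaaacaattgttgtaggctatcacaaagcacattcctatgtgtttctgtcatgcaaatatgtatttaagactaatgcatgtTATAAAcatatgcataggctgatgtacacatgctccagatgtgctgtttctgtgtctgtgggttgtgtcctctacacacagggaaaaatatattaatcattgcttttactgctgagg
The Col5a1 sequence holds 28 CpG dinucleotides and is 76.4% G and C. Col27a1 has 15 CpGs at 59.6%, and Col11a1 has 7 at 62.4%. Col3a1 has 0 CpGs at 35.2% and is the one with the TATA box letters, at bases 134 to 139 of the 250 before the start. Over the 38 RefSeq starts found for 35 of the 44 collagen genes, a GC box stood in 57.9%, against 44.3% of 20061 protein-coding starts. A CCAAT box stood in 34.2% against 35.1%, and a TATA box in 13.2% against 11.2%. A match describes letters and not a bound site.

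Type IV collagen forms the sheet of every basement membrane, and its 6 genes lie in 3 head-to-head pairs. Col4a1 and Col4a2 encode the chains found in nearly all basement membranes. Their transcripts overlap at the 5′ ends, and a single peak at chr8:11312756-11312905 covered both in each library, with a value of 99 in replicate 1 and 78 in replicate 2. The mean of 88.5 ± 14.8 was the highest of all collagen genes, with a wide spread, and the peak cannot be assigned to either gene. Col4a1 had a further promoter peak at an internal start 33.4 kb downstream, with 61 and 66. Col4a3 and Col4a4 encode chains of the filtration barrier of the kidney, and their principal starts lie 127 bp apart. They shared a peak of 40 in replicate 1 and 41 in replicate 2. Col4a5, whose chain pairs with those of Col4a3 and Col4a4, had 72 and 63, a mean of 67.5 ± 6.36. Col4a6, its neighbour on chromosome X, had 20 and 26 at its principal start, a mean of 23.0 ± 4.24. A further promoter peak of 22 in replicate 1 lay 485 bp downstream, with no counterpart in replicate 2. The Col4a5 and Col4a6 peaks were thus separate, and Col4a5 was higher in both libraries without overlap.

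**Figure D3:**
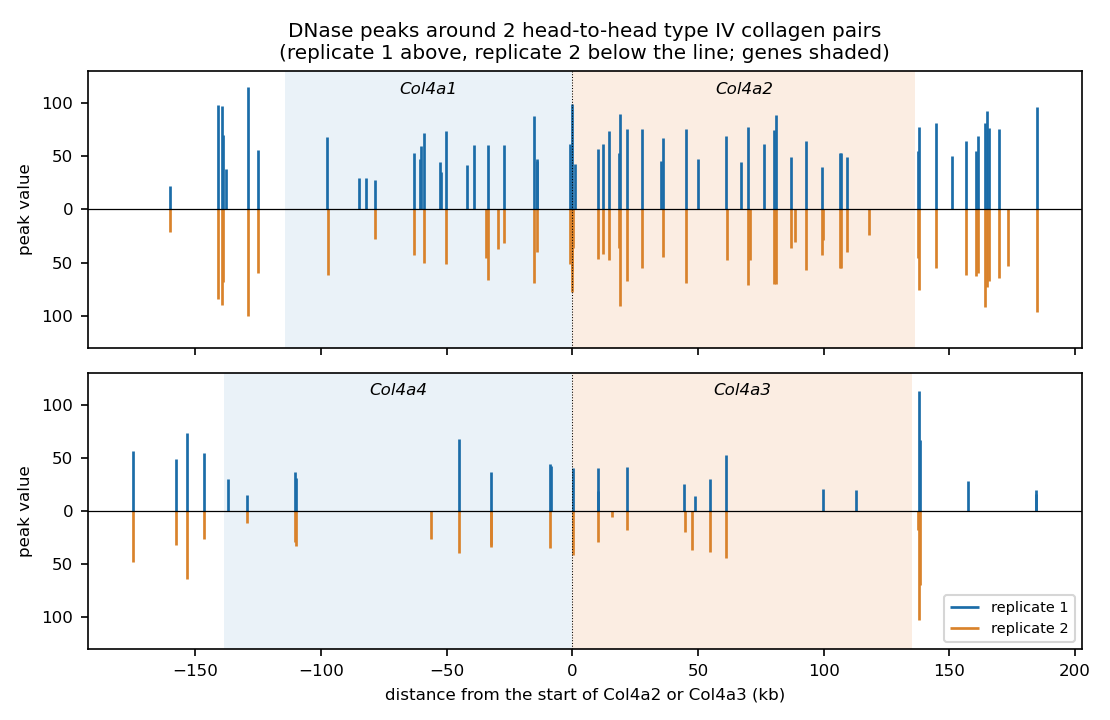
Peaks around Col4a1 and Col4a2 (upper panel) and Col4a3 and Col4a4 (lower panel) by distance from the start of Col4a2 or Col4a3 in kb (horizontal axis), with the peak value upward for replicate 1 and downward for replicate 2 and the genes shaded. The shared promoter peaks reach 99 and 78 in the upper panel and 40 and 41 in the lower panel, and the upper pair carries more sites inside the genes.

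Inside the gene body the type IV pairs differed as well. Col4a2 held 23 distal peaks in replicate 1 and 22 in replicate 2, and Col4a1 held 17 and 10. Col4a3 held 8 and 6, and Col4a4 held 8 and 8. Col4a5 held 5 and 3 distal peaks over 213.85 kb, and Col4a6 held 8 and 8 over 308.67 kb. Per 100 kb, Col4a2 averaged 16.5 ± 0.518 distal peaks, the highest mean density of all 44 genes, and Col4a5 averaged 1.87 ± 0.661. The densities of these genes did not overlap between libraries. In replicate 1 alone Col13a1 was denser than Col4a2, with 17.7 against 16.9 per 100 kb.

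Among the other collagens, type VI forms beaded filaments near basement membranes and around muscle cells. Of its 6 genes, 5 carried a recurrent promoter peak, against 64.2% of all protein-coding genes. Col6a2 had the highest value of the sub-family, 85 in replicate 1 and 91 in replicate 2, a mean of 88.0 ± 4.24, which does not differ from that of the Col4a1 and Col4a2 peak beyond the spread. The 4 further genes ranged in replicate 1 from 25 at Col6a4 to 62 at Col6a1, and in replicate 2 from 20 at Col6a5 to 53 at Col6a1. The Col6a4 peak stood at an internal start, in a start region shared with Gm47575. Col6a3, whose chain completes the main type VI molecule with those of Col6a1 and Col6a2, had 47 and 41. Fibril-associated collagens bind to the surface of fibrils, and 4 of their 9 genes carried a recurrent promoter peak, against the same 64.2%. Col16a1 led them with 81 and 73, at a start region shared with Gm12963. Below it, Col12a1 had 60 and 51, and Col9a2 had 28 and 33 at an internal start. Col22a1, a collagen of the muscle and tendon junction, had 21 and 28. Col15a1 and Col18a1 are multiplexins of the basement membrane zone, and the C-terminal part of Col18a1 is released as endostatin. Col18a1 had 46 and 59 at an internal start. At its principal start, which lies inside the annotated gene, no peak was listed in either library. At the 5′ end of the annotated gene a peak of 40 was listed in replicate 1 alone. Col15a1, made by muscle and vessel cells, had 32 and 30 at an internal start. At its principal start, in a start region shared with Gm12426, a peak of 28 was listed in replicate 1 alone.

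All 4 transmembrane collagens carried recurrent promoter peaks, against 64.2% of all protein-coding genes. At the principal start alone 3 of 4 did, against 59.6%. Col23a1 had the highest mean, 69 in replicate 1 and 72 in replicate 2, or 70.5 ± 2.12. Col25a1 had 73 and 66 at its principal start. Col13a1 had 53 and 46 at an internal start, with 36 and 37 at its principal start. Col17a1, a hemidesmosome protein of skin, had 23 and 19 at an internal start and no peak at its principal start. Short-chain collagens form networks in vessel walls and cartilage, and of these Col8a2 reached 23 and 26 and Col8a1 22 and 21. Col7a1, whose chain anchors skin epithelium to the dermis, had 15 in replicate 1 and no peak in replicate 2. Col26a1, a little studied member, had 37 and 39 at an internal start.

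Hotspots gave a further measure of the same promoters, with −log10 of the q-value listed up to 100, called the cap here. Collagen hotspots were also listed at values such as 5.70 and 6.0. The cap may stand for any q-value too small to be resolved, so distances to it were not read. The hotspot over the Col4a1 and Col4a2 starts was 471 bp wide in replicate 1 and 661 bp in replicate 2, and that of Col6a2 was 488 and 529 bp, all at the cap. At the Col1a1 start the hotspots were 89 and 199 bp wide with 1.85 and 2.74, while the taller Col1a1 site downstream lay in hotspots of 483 and 573 bp at the cap. The Col3a1 start had 143 and 209 bp with 2.16 and 2.34. These starts of Col1a1 and Col3a1 thus had narrow hotspots with values from 1.85 to 2.74, and the lower limit of the list is 1.3. The Col1a2 start had wider ones, of 684 bp at the cap in replicate 1 and 409 bp with 5.30 in replicate 2.

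No promoter peak stood in either library at 6 of 44 collagen genes, against 31.9% of all protein-coding genes. All 6 belonged to the other collagens. Col9a3 encodes a chain of the fibril-associated type IX collagen of cartilage, and Col10a1 the short-chain collagen of hypertrophic cartilage. Col14a1 and Col20a1 are fibril-associated, Col6a6 is an alternative type VI chain, and Col28a1 is a von Willebrand factor A domain collagen. A promoter peak in 1 library was found at Col7a1, Col9a1, Col11a2 and Col19a1, in each case in replicate 1, which has the longer peak list. Of the 6 genes with no promoter peak, 4 held distal peaks inside the gene in both libraries. The same held for 37 of all 44 collagen genes and 46.6% of all protein-coding genes. Col14a1 held 18 and 11, Col28a1 held 17 and 11, Col6a6 held 16 and 10, and Col20a1 held 3 and 2. Outside the promoter window, 1.4 kb upstream of its principal start, Col14a1 also had a peak of 54 in replicate 1 and 51 in replicate 2.

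Distal peaks inside the gene body were present in both libraries at 37 of 44 collagen genes, against 46.6% of all protein-coding genes. Collagen genes are long, with a median of 114.39 kb against 17.4 kb. Per 100 kb of gene, the collagen median was 6.77 distal peaks in replicate 1 and 5.35 in replicate 2, against 1.65 and 0 over all protein-coding genes. Among genes of at least 50 kb, a limit chosen after seeing the data, 29 collagen genes had medians of 7.69 and 5.65, against 5.90 and 5.11 over 5000 protein-coding genes. The difference from the background was thus smaller among long genes than over all genes. Hotspots covered a median of 2.04% and 1.77% of the collagen gene body, against 2.53% and 2.33% over all protein-coding genes. Without the sequence within 1 kb of any start the order turned, with 1.52% for collagen genes, against 0.266% over all protein-coding genes, as means of the medians of both libraries.

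The most distal peaks were held by Col23a1, with 32 in replicate 1 and 25 in replicate 2, followed by Col25a1, another transmembrane chain, with 27 and 25. Col4a2 came next with 23 and 22. Col13a1, a transmembrane collagen of muscle and its nerve contacts, had 25 and 16, and Col5a1 had 21 and 18. Counts of 6 genes were 0 in both libraries, namely Col1a2, Col6a1, Col7a1, Col9a3, Col10a1 and Col11a2. Col13a1 also showed the largest difference between libraries. A difference of 7 peaks followed at Col4a1, at Col14a1, at Col23a1 with the values above, and at Col27a1, which had 10 and 17. Col27a1 was the only one of these with more peaks in replicate 2.

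**Figure D4:**
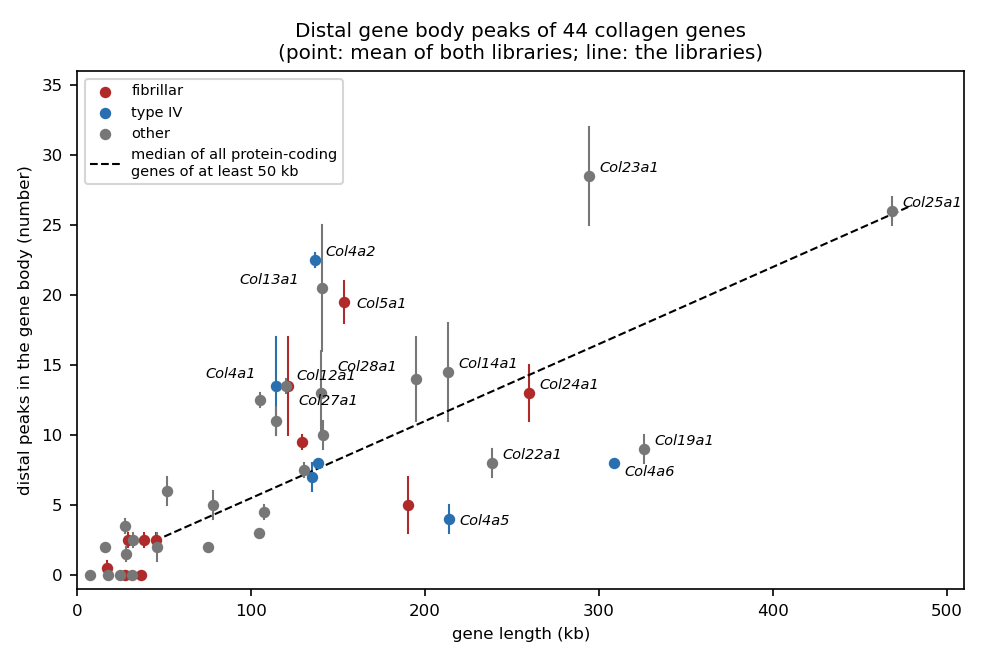
Number of distal peaks in the gene body (vertical axis) against gene length in kb (horizontal axis) for the 44 collagen genes, coloured by class, with a point at the mean of both libraries and a line joining them. The dashed line is the median density of all protein-coding genes of at least 50 kb, and Col23a1, Col4a2, Col13a1 and Col5a1 lie above it while Col4a5, Col4a6 and Col19a1 lie below it.

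Across collagen genes, replicate 1 had 385 distal body peaks and replicate 2 had 318. Of these, 67.3% and 79.9% overlapped a peak of the other library, against 67.7% and 79.4% of all distal peaks, so their recurrence was that of the genome. Their centre lay in an annotated exon in 21 of 385 and 22 of 318 cases, which does not count peaks that reach an exon only with an edge. The first intron of the principal transcript held the centre of 56 of 385 and 42 of 318. The same shares over all distal peaks are not given here. Along the gene, the first 20% of the length held 22.9% and 21.7% of collagen body peaks, against 19.9% and 19.8% over all protein-coding genes. The last 20% held 15.1% and 17.6%, against 20.9% and 21.2%.

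The 5 distal body peaks with the highest mean value that overlapped between libraries all lay in introns. The highest stood in Col12a1, which encodes a fibril-associated collagen of tendon and muscle, at chr9:79617496-79617645 in intron 53, with 97 in replicate 1 and 86 in replicate 2. Next came intron 3 of Col4a2, 19.05 kb past the start, with 90 and 91. After the Col2a1 site, intron 5 of Col23a1 had 85 and 83, and intron 14 of Col28a1 had 88 and 78. In replicate 1 these values lay between the percentiles 97.25 and 98.953 of all distal peaks.

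The intervals of replicate 1 for 3 of these sites are shown as the plus strand of GRCm38.p6. They are among the most accessible collagen intron sites and include one in a gene without a promoter peak. The sites of Col12a1, the highest, and of Col2a1 are left out, because these genes have no entry among the RefSeq promoters used above. Capitals mark consensus letters on either strand for AP-1 factors (TGANTCA), TEAD factors (GGAATG), the GATA family (AGATAA), SOX factors (AACAAT), RUNX factors (TGTGGT), an E-box (CAGCTG) and ETS factors (CAGGAA), or for the MEF2, NFI or CArG consensus.
Col4a2, chr8:11331776-11331925: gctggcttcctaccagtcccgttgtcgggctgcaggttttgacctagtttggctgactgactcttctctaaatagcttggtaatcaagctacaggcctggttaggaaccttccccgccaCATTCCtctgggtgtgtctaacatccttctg
Col23a1, chr11:51539756-51539905: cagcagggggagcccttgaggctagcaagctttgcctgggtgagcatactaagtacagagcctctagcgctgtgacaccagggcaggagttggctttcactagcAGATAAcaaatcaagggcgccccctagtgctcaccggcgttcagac
Col28a1, chr6:8106036-8106185: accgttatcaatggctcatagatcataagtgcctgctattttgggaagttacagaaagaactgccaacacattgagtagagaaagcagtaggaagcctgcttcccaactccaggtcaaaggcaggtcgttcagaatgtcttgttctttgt
The Col4a2 site holds the TEAD letters and the Col23a1 site the GATA letters, while the Col28a1 site holds none of those searched. Over collagen body peaks, AP-1 letters stood in 10.9% of replicate 1 and 10.7% of replicate 2 peaks, against 8.30% and 8.36% of all distal peaks. TEAD letters stood in 12.5% and 12.9%, against 12.0% and 12.4%. GATA letters stood in 10.4% and 10.7%, against 9.93% and 9.44%. MEF2 letters stood in 5.71% and 5.97%, against 4.47% and 4.62%. For RUNX the shares were 12.2% and 13.8%, against 10.2% and 10.6%, and for SOX they were 4.94% and 5.97%, against 6.80% and 7.03%. An E-box stood in 15.1% and 13.8%, against 13.8% and 14.2%. ETS letters stood in 24.9% and 23.6%, against 24.9% and 24.8%. NFI letters stood in 1 collagen body peak of each library, or 0.260% and 0.314%, against 0.0888% and 0.101%. The CArG box stood in 2 of replicate 1 and 4 of replicate 2, or 0.519% and 1.26%, against 0.900% and 0.928%. The NFI and CArG shares rest on these few peaks.

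Outside the genes, within 50 kb of either end, distal peaks were present in both libraries at 42 of 44 collagen genes, against 86.5% of all protein-coding genes. The median number was 6.5 in replicate 1 and 6 in replicate 2, against 6 and 5. Col1a2 had 16 in each library, and all of them lay outside other protein-coding genes. Col4a1 had 18 and 14, and Col4a2 had 14 and 14, largely inside each other, since outside other genes the counts were 6 and 5 at Col4a1 and 3 and 4 at Col4a2. Col6a1 had 13 and 12, and Col14a1 had 14 and 11. Col6a2, with 15 and 9, had a mean of 12.0, next below these. Col15a1, chosen after its values were seen, had 15 flank peaks in replicate 1 and 3 in replicate 2, the widest gap between libraries of any member. Col4a5 had 0 in both.

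A far-upstream enhancer of Col1a2 that is active in fibroblasts is known from transgenic mice. In newborn heart a cluster of 3 peaks stood 17.0, 16.0 and 15.4 kb upstream of the principal start, and each had the same interval in both libraries. They were chosen for their place, after their values were seen, and their letters are given from the plus strand of GRCm38.p6 with capitals as for the intron sites.
Col1a2 upstream 1, chr6:4488436-4488585: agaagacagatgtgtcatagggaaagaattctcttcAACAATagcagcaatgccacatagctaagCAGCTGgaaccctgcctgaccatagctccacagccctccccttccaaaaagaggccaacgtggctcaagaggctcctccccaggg
Col1a2 upstream 2, chr6:4489456-4489605: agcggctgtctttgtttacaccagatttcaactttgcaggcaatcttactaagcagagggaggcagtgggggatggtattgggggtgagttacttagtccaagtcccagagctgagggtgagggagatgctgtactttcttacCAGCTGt
Col1a2 upstream 3, chr6:4490036-4490185: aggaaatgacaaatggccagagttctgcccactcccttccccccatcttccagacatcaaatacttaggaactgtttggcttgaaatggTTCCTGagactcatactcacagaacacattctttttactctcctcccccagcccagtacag
The first had values of 65 in replicate 1 and 51 in replicate 2 and holds the SOX letters and an E-box. The second had 65 and 56 and holds an E-box, and the third had 52 and 49 and holds the ETS letters. These values were close to the 60 and 53 of the Col1a2 promoter itself. Upstream of Col1a1 the tallest site stood 7.3 kb from the start in replicate 1, with 90 in that library and 95 in replicate 2. A further site 18.3 kb upstream had 63 and 66, and both sites were above every Col1a1 promoter peak in each library. Around Col3a1 the flanks were sparse, with 5 distal peaks in replicate 1 and 6 in replicate 2, and of these 3 and 4 lay inside the neighbouring Col5a2.

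**Figure D5:**
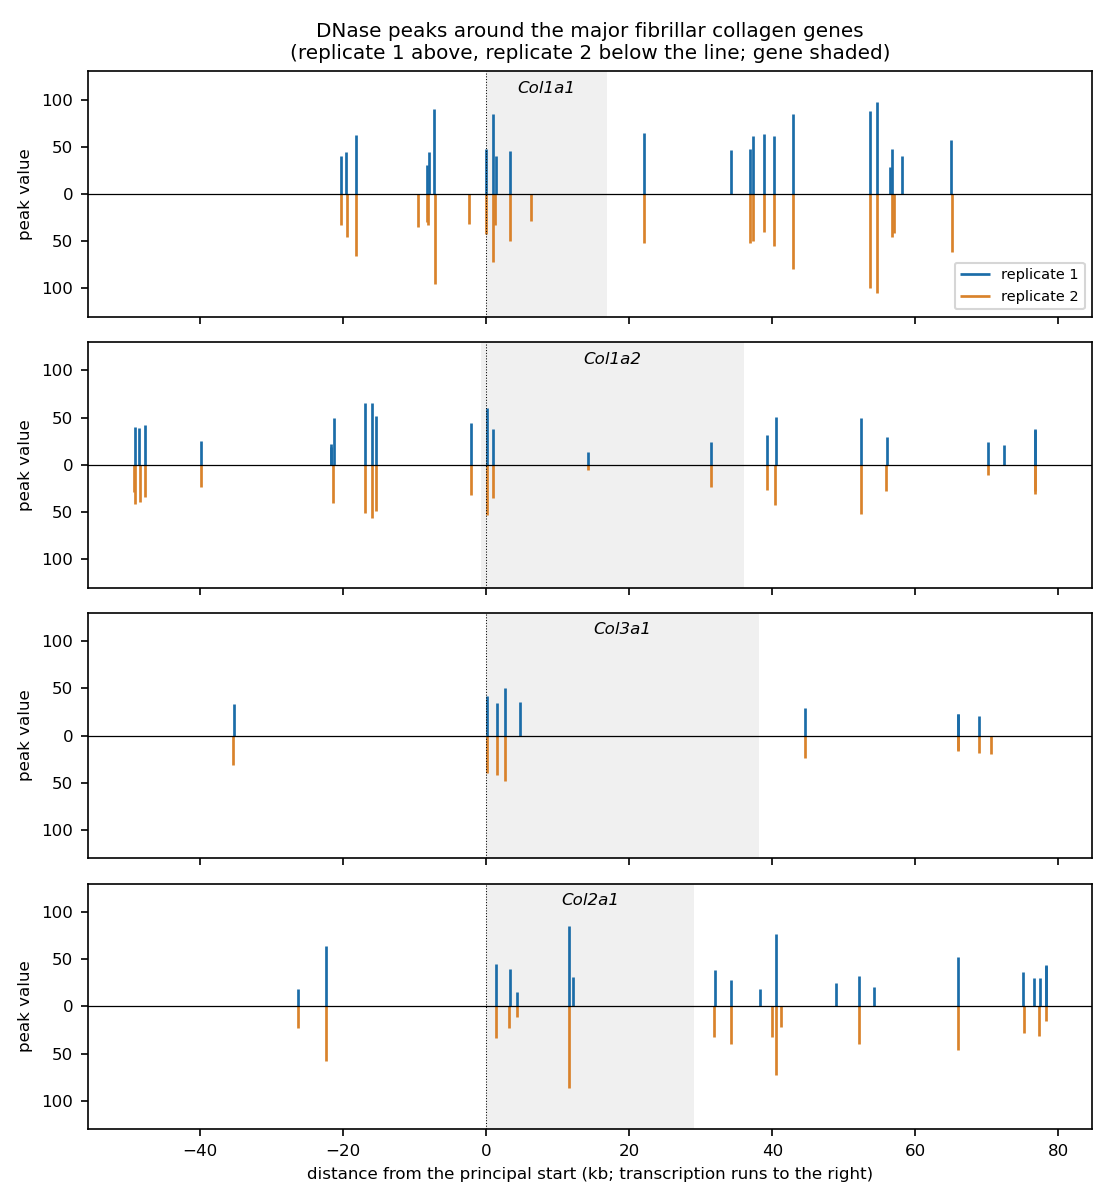
Peaks around Col1a1, Col1a2, Col3a1 and Col2a1 by distance from the principal start in kb (horizontal axis, transcription to the right), with the peak value upward for replicate 1 and downward for replicate 2 and the gene shaded. The Col1a2 cluster stands 15.4 to 17.0 kb upstream, the tall Col1a1 site 7.3 kb upstream, and the tall Col2a1 site 11.6 kb inside the gene.

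Collagen chains need a set of enzymes and chaperones before they leave the cell. Of 31 genes of collagen synthesis and processing, 28 carried a recurrent promoter peak, to be read against the 64.2% of all protein-coding genes. P4hb, a subunit of prolyl 4-hydroxylase, had the highest values, 128 in replicate 1 and 126 in replicate 2. Serpinh1, the collagen chaperone HSP47, had 120 and 123, and Colgalt1, a galactosyltransferase of hydroxylysine, had 124 and 118. Loxl2, a crosslinking oxidase, and P4ha3 had none in either library, and P3h3 had 32 in replicate 1 alone. The top 3 exceeded every collagen promoter value in both libraries, but they were picked as the highest of the list. Other members lay within the collagen range, such as Lox with 57 and 47 and Pcolce2 with 31 and 40. Over all protein-coding genes with a recurrent promoter peak the medians were 89 and 85.

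Cells bind collagen through integrins and discoidin domain receptors. Of 10 collagen receptor genes, 8 carried a recurrent promoter peak, against 64.2% of all protein-coding genes. Itgb1, the shared beta chain of collagen-binding integrins, had 119 in replicate 1 and 109 in replicate 2. Itga1 had 95 and 86, and Ddr1 had 82 and 80. Gp6, the platelet collagen receptor, had none in either library, and Lair1, an inhibitory receptor of leukocytes, had 11 in replicate 2 alone.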

How the data were processed

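DNase-seq peak and hotspot lists of both libraries of P0 heart were used. Per the text deposited with each library, the authors called them per replicate from alignments to mm10 that had been filtered. Aligner, caller and calling thresholds: not given in the sources used here. Each deposited peak carries a signal value of unstated normalization, which may not be corrected for depth. Each deposited hotspot carries a −log10 q-value between 1.3 and 100, and a score of the same value that was not used. Coordinates are printed from 1, and chromosome lengths were checked against GRCm38.p6.

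Genes and starts came from GENCODE vM21, and the principal start is that of the APPRIS principal transcript. Peaks were assigned by their centre. Python 3.11.15 with numpy 2.4.6, pandas 2.3.3, pysam 0.24.0 and matplotlib 3.10.9 was used, and the counting was checked on simulated peaks. With 1 group no test was possible, and collagen values stand beside those of all protein-coding genes. The members and lists were chosen with earlier results of these data known. A gene of the podocyte marker list is not reported here and is not in its count. Named were all fibrillar and type IV genes, the top gene of each other sub-family, genes without promoter peaks, those with the most distal peaks, and the highest shared intron peaks. Alternatives changed the windows, the starts, the peak set and the overlap, and left out each library.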

Additional observations from a re-analysis of the deposited data

How the results depend on the processing

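Of 57 alternative values, 47 stayed within 1.5 times the main count or, for medians, within 1 SD between libraries, and 10 moved. Against all protein-coding genes, 49 lay on the same side as the main value, 1 was equal and 7 lay on the other side. The 7 were the promoter counts of all collagens with the 5′ end only (24) and with the 50% of peaks of higher value (23), those of the other collagens with these settings, with 250 bp (14) and with the principal start (12), and the body share in hotspots without sequence near starts. Leaving out either library gave 34 and 38 collagen genes with a promoter peak. The promoter counts of all, fibrillar and type IV collagens kept within 1.5 times under each alternative run. The 18 other collagens fell to 11 with the 5′ end only and to 10 with the 50% of peaks of higher value. That peak set also lowered the median of 6.06 distal body peaks per 100 kb to 2.40 and the median of 6.25 flank peaks to 2.5. The flank median was 7.25 with a distal limit of 500 bp, 2.0 within 20 kb, 4.0 within 50 kb of the 5′ end, and 4.5 outside other protein-coding genes, a setting chosen after seeing the data, as were the principal start and the length limit. The median of 1.90% of the body in hotspots was 0.739% with the highest q-values only and 1.52% without sequence near starts, against 0.266% over all protein-coding genes. Smaller windows and shorter lists lower these counts by construction. No paired analysis was possible because the series has 1 group. With 2 libraries and unknown depth, a missing peak means only that none was listed.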
